A study of Mus musculus with 3 samples.

Results

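The genes described here are the Id genes Id1, Id2 and Id3, the E protein genes Tcf3, Tcf4 and Tcf12, and the HMG-box factor genes Tcf7 and Lef1. They were chosen by name, 8 genes in all, and 7 of them had a value among the 19938 genes of the table. Each of the 7 was read by 1 probe set. Tcf7 had no probe set listed under its symbol in the annotation used and was not analysed here. The RNA came from CD4 T cells of OT-II mice (B6.Cg-Tg(TcraTcrb)425Cbn/J), whose transgenic T cell receptor recognises an ovalbumin peptide. Naive cells were sorted from spleen and activated with that peptide on T-cell-depleted splenic antigen-presenting cells from Il23a-/- mice, so all groups shared both features. Th0 cells had no added cytokine, Th22 cells had IL-6, and Th17 cells had IL-6 with TGFβ. Cells were purified with magnetic beads after 60 hours of culture and hybridised to 1 array per condition. The labels give neither the age of the mice nor whether cells of several animals were pooled.

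E proteins are basic helix-loop-helix factors that bind DNA in pairs at a short sequence called the E-box. Id proteins have the helix-loop-helix but lack the basic region, so an Id protein bound to an E protein keeps it from DNA. In T cells this pair of opposing families acts in thymic development, in the maintenance of naive cells and in the choice between effector, follicular and regulatory fates. Tcf7, which encodes TCF-1, and Lef1 belong to a different family that can pair with β-catenin and is high in naive and memory T cells. The names invite confusion: Tcf3 here encodes E2A and Tcf4 encodes E2-2, and neither is the Wnt factor Tcf7l1 or Tcf7l2.

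Values are log2 differences from each probe set's own median over the 3 arrays, with base 2 assumed, so the middle array of every gene is at 0 and expression levels are not known. The order of levels between genes therefore cannot be given. With 1 array per condition no difference could be tested, and none has a replicate check. A gene was counted where a pair of arrays differed by at least 2-fold, which is 1 on this scale. The nearest thing to an error is the disagreement between separate probe sets of 1 gene. Over 999 such genes its SD was 0.13 between Th17 and Th22, 0.10 between Th22 and Th0, and 0.14 between Th17 and Th0, which leaves out the spread between cultures. The Th17 array varied most, with an SD over probe sets of 0.28 against 0.17 for Th0 and 0.12 for Th22. In RNA from whole cultures, fewer cells expressing a gene and less RNA per cell cannot be told apart.

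Among the 7 genes Id3 stood furthest apart between Th17 and Th22, and Lef1 had the same order of arrays with smaller steps. Both were highest in Th22, in the middle in Th0 and lowest in Th17. Tcf4 and Id1 were highest in Th17, Id2 was lowest in Th0, Tcf3 was highest in Th0, and Tcf12 was equal on all 3 arrays. Between Th17 and Th22, 1 of 7 members was at least 2-fold lower in Th17, as were 1.5% of all genes, and 0 were higher, as were 1.1%, which makes 2.61% of all genes in either direction. Between Th22 and Th0, 0 of 7 passed 2-fold against 0.808% of all genes. Between Th17 and Th0, 0 of 7 passed against 3.03% of all genes. With 7 members these counts are too small to be set apart from the shares over all genes.

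**Figure D1:**
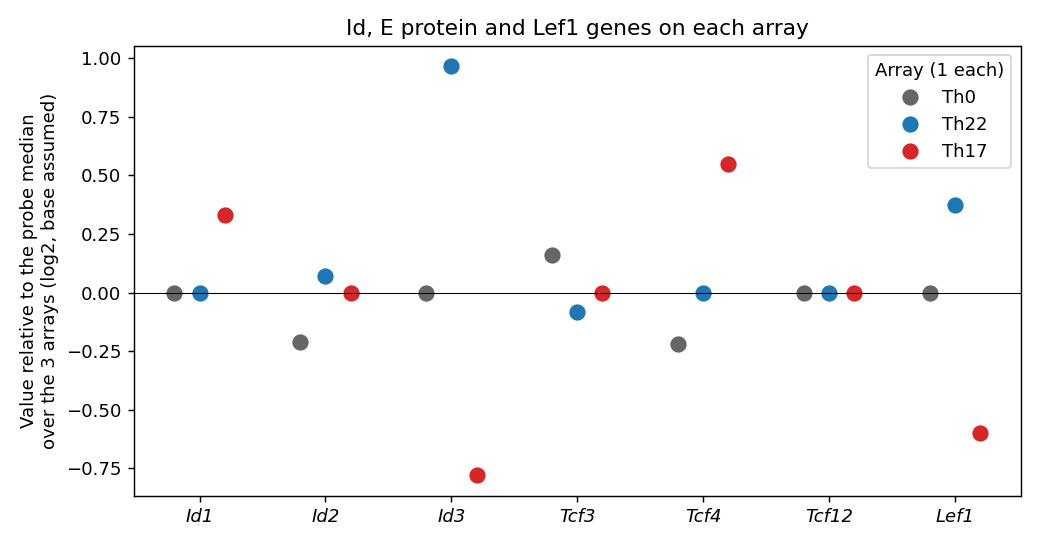
Value of each gene on the Th0, Th22 and Th17 arrays, on the vertical axis as a log2 difference from the gene's median over the 3 arrays (base assumed), 1 point per array and no error bar because there is 1 array per condition. Id3 runs from 0.97 in Th22 to -0.78 in Th17, Lef1 from 0.37 to -0.60, and the 3 Tcf12 points coincide at 0.

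Id3 encodes an Id protein that is induced by T cell receptor signalling and by BMP and TGFβ signals, and that holds E proteins in check in naive and regulatory T cells. Its value was 0 in Th0, 0.97 in Th22 and -0.78 in Th17. The Th22 array was thus the high one and the Th17 array the low one, with Th0 between them. Id3 was 3.35-fold lower in Th17 than in Th22. Of all 19938 genes, 111 (0.557%) were at least as far down in that comparison, Id3 included. It was 1.95-fold higher in Th22 than in Th0, just inside the threshold, and 1.72-fold lower in Th17 than in Th0. Quantile normalization was applied here and below to the deposited median-centred values. It therefore equalised the spread of these deviations, smallest for Th22 and largest for Th17, and not the array intensities. Quantile normalization took the difference between Th22 and Th0 to 1.28 log2, past 2-fold, and that between Th17 and Th0 to -0.48 log2. Both comparisons with Th0 use the same Th0 array. A total of 8 genes, Id3 included, lay at least as far above Th0 in Th22 and at least as far below it in Th17. The other 7, named here after their values were seen, were Cxcr3, Dhx58, Ebf1, Ermn, Kdelr3, Tgm1 and Upp1.

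Id2 encodes the Id protein that effector T cells and innate lymphoid cells are known to use. Its value was -0.21 in Th0, 0.07 in Th22 and 0 in Th17. The cells given IL-6 were both a little above Th0 and close to each other. Id2 was 1.22-fold higher in Th22 and 1.16-fold higher in Th17 than in Th0, and 1.05-fold lower in Th17 than in Th22. The last of these, -0.07 log2, was smaller than the SD between probe sets. Between Th17 and Th22 Id3 thus differed by 1.75 log2 while Id2 differed by 0.07 in the same direction, written here without sign. Id1, an Id gene best known as a target of BMP signalling, was at 0 in Th0, 0 in Th22 and 0.33 in Th17. The Th17 array was alone in being higher, by 1.26-fold. Exact equality of a pair of arrays was common, since 7007 of 28853 probe sets had it. In 3390 of these the remaining array was above the pair and in 3617 below it, by a median of 0.05 log2, and 164 (2.34%) differed by at least as much as Id1.

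The promoters of Id3 and Lef1, which shared an order of arrays, are shown with that of Id2, which did not. Sequences are from RefSeq on build GRCm38.p6, used as a reference for the gene and not as the build of the arrays, which is not given in the labels. Each is the 250 bases before the gene's own RefSeq start, printed 5′ to 3′ on the gene's strand. Capitals mark every E-box, CANNTG, the motif that E protein pairs bind. Of the 8 genes Tcf4 was left out of the search, and a window at the gene's own start was found for these 3 only. The positions are chr4:136143572-136143821 on the plus strand for Id3, chr3:131110047-131110296 on the plus strand for Lef1 and chr12:25096093-25096342 on the minus strand for Id2.
Id3: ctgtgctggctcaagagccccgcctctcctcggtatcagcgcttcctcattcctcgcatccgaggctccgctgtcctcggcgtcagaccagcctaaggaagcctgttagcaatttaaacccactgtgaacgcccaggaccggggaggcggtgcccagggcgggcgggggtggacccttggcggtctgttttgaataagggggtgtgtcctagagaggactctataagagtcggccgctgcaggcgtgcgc
Lef1: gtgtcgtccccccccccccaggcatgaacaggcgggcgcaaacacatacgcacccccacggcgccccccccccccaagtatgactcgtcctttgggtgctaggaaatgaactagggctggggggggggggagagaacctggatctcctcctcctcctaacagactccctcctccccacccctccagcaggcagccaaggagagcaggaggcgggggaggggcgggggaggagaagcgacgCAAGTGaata
Id2: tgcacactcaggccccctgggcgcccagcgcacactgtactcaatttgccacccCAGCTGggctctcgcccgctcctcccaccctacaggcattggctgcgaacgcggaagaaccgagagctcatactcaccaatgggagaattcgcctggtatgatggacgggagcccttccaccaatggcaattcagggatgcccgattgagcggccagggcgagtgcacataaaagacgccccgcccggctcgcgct
The Id3 window held no CANNTG, a motif present in 66.0% of 27025 windows of the same length. These were 1 per gene, the first listed, which need not be at the gene's own start. The Lef1 window held 1, CAAGTG, at 10 to 5 bases before the start. The Id2 window held 1, CAGCTG, at 196 to 191 bases before the start, and that version was present in 12.8% of windows. Other motifs were searched on both strands. The GC-rich element GGCGCC, a kind of site through which BMP signals act on Id genes, occurred once in Lef1, once in Id2 and not in Id3, against 9.54% of windows. None of the 3 held the Tcf and Lef core CTTTGA (14.0% of windows), the Smad sites CAGACA (17.1%) or GTCTAGAC (0.174%), the STAT site TTCNNNGAA (7.18%) or the Egr site GCGNGGGCG (4.65%). The motif CAGCTG is one form of CANNTG, so those counts overlap. GC content was 62.8% in Id3, 66.4% in Lef1 and 62.8% in Id2, against a median of 52.0% over all windows. A match is a run of letters only, and a missing one says nothing of sites elsewhere.

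Among the E protein genes, Tcf4 differed most between arrays. Tcf4 encodes E2-2, the E protein that plasmacytoid dendritic cells and B cells depend on. Its value was -0.22 in Th0, 0 in Th22 and 0.55 in Th17. The arrays stood in the order Th0, Th22, Th17 from low to high. Tcf4 was 1.70-fold higher in Th17 than in Th0, 1.46-fold higher in Th17 than in Th22 and 1.16-fold higher in Th22 than in Th0. Of all genes, 2.16% were at least as far up in Th17 against Th0. Markers of the cells known for this gene were set beside it. Of 9 B cell markers measured, 6 were equal on all 3 arrays and 1, Ebf1, was past 2-fold, with its lowest value in Th17 and its highest in Th22. Of 8 plasmacytoid dendritic cell markers 0 were higher in Th17 than in Th0 by any amount, 3 were lower and 5 equal. Against Th22, 2 of the 8 were higher in Th17, 3 lower and 3 equal, with Irf8 the furthest up at 0.74 log2 and past 2-fold only after quantile normalization. The defining markers Siglech, Cd79a and Pax5 were at 0 on every array, which does not tell absent from equal.

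Tcf3 encodes E2A, the E protein with its splice forms E12 and E47 that acts from the earliest T cell stages. Its value was 0.16 in Th0, -0.08 in Th22 and 0 in Th17. Th0 was the high array. Against Th0, Tcf3 was 1.18-fold lower in Th22 and 1.12-fold lower in Th17, and it was 1.06-fold higher in Th17 than in Th22. Tcf12 encodes HEB, the partner of E2A in thymocytes, and its value was 0 on all 3 arrays. Exact equality was shared by 7507 genes (37.7%), and the table does not tell an equal gene from one that was not detected. The order of the E protein genes by their span over the arrays was Tcf4 (0.77 log2), Tcf3 (0.24 log2) and Tcf12 (0). For Id3, Id1 and Id2 the spans were 1.75, 0.33 and 0.28 log2.

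Lef1 encodes an HMG-box factor that acts with TCF-1 to keep naive T cells and to start the follicular helper program. Its value was 0 in Th0, 0.37 in Th22 and -0.60 in Th17. As for Id3, Th22 was the high array and Th17 the low one. Lef1 was 1.96-fold lower in Th17 than in Th22, just inside the threshold, 1.30-fold higher in Th22 than in Th0 and 1.51-fold lower in Th17 than in Th0. In the first comparison 315 genes (1.58%) were at least as far down. After quantile normalization the differences were -0.81 log2 for Th17 against Th22 and -0.37 log2 for Th17 against Th0. The order Th22, Th0, Th17 from high to low was that of 1364 genes, which is 17.5% of the 7781 genes with 3 different values and so able to have such an order. Beside Id3 and Lef1, pan T cell markers were also lower in Th17 than in Th22. Of 10 measured, 8 were lower and 2 higher, with 0 past 2-fold and a median of -0.28 log2, from -0.59 for Cd3d to 0.30 for Lat. Over all genes the median was 0. Between Th17 and Th0 the same 10 markers were split, 6 up and 4 down in Th17, and their median was 0.01 log2. In that comparison Id3 was at -0.78 log2 and Lef1 at -0.60 log2. Between Th22 and Th0 all 10 were up in Th22, and their median was 0.12 log2. The part of these markers in the values of Id3 and Lef1 was not tested.

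**Figure D2:**
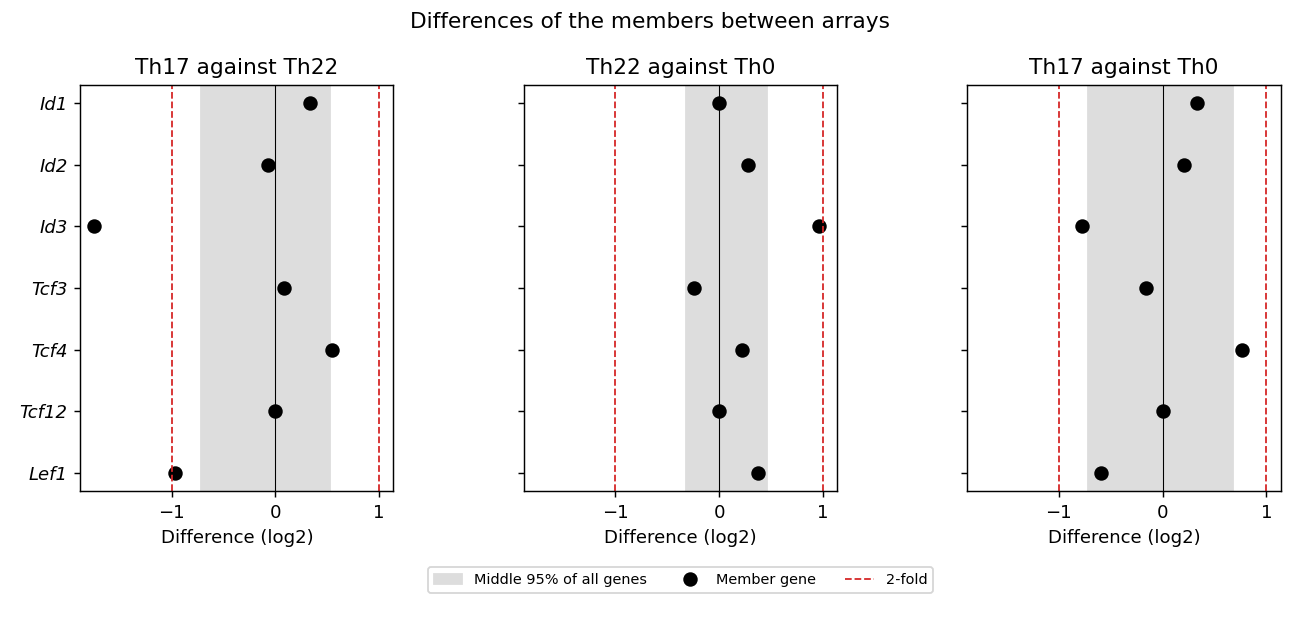
Difference of each of the 7 genes in the 3 comparisons of arrays (horizontal axis, log2; 1 point per gene), with the middle 95% of all genes shaded and 2-fold marked by dashed lines. For Th17 against Th22 the shaded range runs from -0.72 to 0.52, and Id3 at -1.75, Lef1 at -0.97 and Tcf4 at 0.55 lie outside it.

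The genes nearest in pattern were found by the distance over the 3 differences between arrays, which rests on 3 values per gene. Nearest to Id3 were Tmem45a at a distance of 0.14 log2, Inhba, which encodes a subunit of activin A, at 0.15, and Gstt1, a glutathione transferase gene, at 0.27. Inhba was at 0 in Th0, 1.07 in Th22 and -0.67 in Th17. Within 0.3 of Id3 there were 5 genes. Nearest to Lef1 were Mfsd2a, a lipid transporter gene, at 0.02, Gtf2e2, which encodes a general transcription factor subunit, at 0.03, and Apln, which encodes the peptide apelin, at 0.05. Within 0.3 of Lef1 there were 66 genes, so many genes lay as close to its smaller pattern. No pattern near Tcf7 could be sought.

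**Figure D3:**
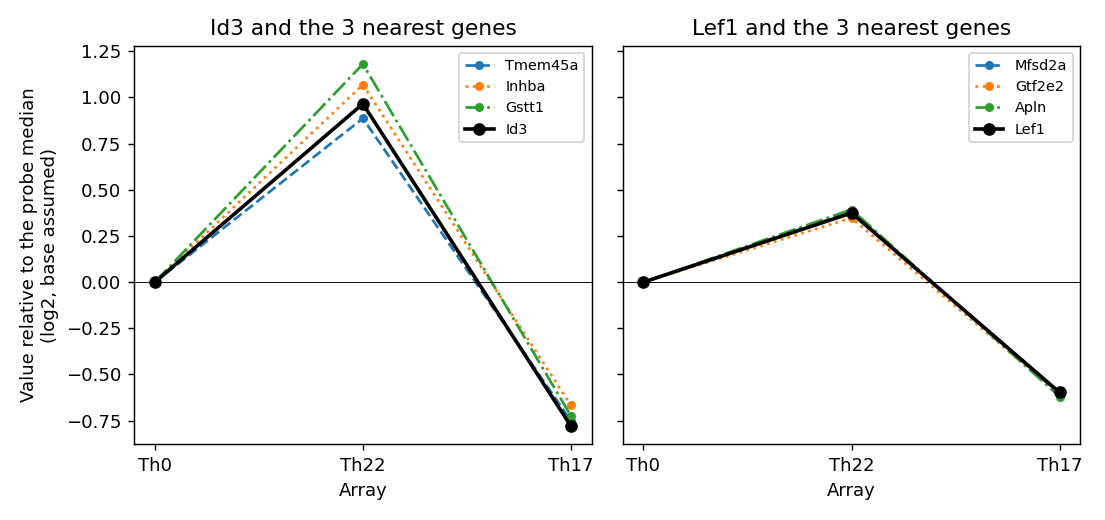
Values of Id3 (left) and Lef1 (right) with the 3 genes nearest to each in pattern, on the vertical axis in log2 relative to the gene's median, for the Th0, Th22 and Th17 arrays (1 array each, lines join the values of a gene). All 8 lines peak in Th22 and are lowest in Th17, as the choice by likeness fixes.

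The other genes of these pathways were taken from 5 lists, chosen with earlier results of these data known, so their counts are not an independent result. Of all genes, 2.61% were past 2-fold between Th17 and Th22, 0.808% between Th22 and Th0 and 3.03% between Th17 and Th0. None of 19 measured partners and cofactors of Id and E proteins was past 2-fold in any comparison, with medians of 0. The largest difference was that of Ascl2, a basic helix-loop-helix factor gene that starts follicular helper differentiation. Its value was 0 in Th0, 0.65 in Th22 and -0.34 in Th17, the order of Id3 and Lef1, and it was -0.99 log2 in Th17 against Th22. Bhlhe40, which encodes a helix-loop-helix repressor needed for cytokine output of effector T cells, had the same order, at 0, 0.31 and -0.31. Lmo4, a cofactor gene of such complexes, was highest in Th17, at 0 in Th0, -0.34 in Th22 and 0.26 in Th17. Id4 differed by at most 0.01 log2. Quantile normalization put Ascl2 and Lmo4 past 2-fold between Th17 and Th22.

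Between Th17 and Th22, 5 of 26 inputs to the Id genes were at least 2-fold higher in Th17 and 1 lower, against 1.1% and 1.5% of all genes. Their median was 0.08 log2 against 0 over all genes. Higher were the receptor genes Tgfbr1 (2.72 log2), Acvr2a (2.23 log2), Bmpr2 (1.39 log2) and Tgfbr2 (1.10 log2), and Smad7, the inhibitory Smad gene (1.20 log2). Atf3, which encodes a factor known to repress Id1 together with Smad3, was lower by 4.25-fold, or by 2.26-fold after quantile normalization. Its value was 1.38 in Th0, 0 in Th22 and -2.09 in Th17, the reverse of the order of Tcf4. Between Th17 and Th0, 5 were higher, Tgfbr1, Acvr2a, Smad7, Smad3 (2.82-fold) and Bmpr2, and Atf3 was lower, with a median of 0.24 log2. Between Th22 and Th0, Acvrl1, a BMP receptor gene, was 2.62-fold higher and Atf3 2.59-fold lower, and the other 24 were within 2-fold. Egr1, Egr2 and Egr3, through which the T cell receptor induces Id3, lay within 0.24 log2 between Th17 and Th22. Quantile normalization left Bmpr2, Tgfbr2 and Smad7 under 2-fold between Th17 and Th22, and put Tgfbr1 past it between Th22 and Th0, lower in Th22.

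Of 21 reported E protein targets measured, 3 passed 2-fold between Th17 and Th22, each of them higher in Th17, and 18 did not. Of all genes, 1.1% were higher by that much. The median of the list was 0. The 3 were Foxp3 (3.65 log2), the regulatory T cell factor gene, Cxcr5 (2.18 log2), the follicular homing receptor gene, and Bcl6 (1.03 log2), the follicular helper factor gene. Bcl6 passed by little, and quantile normalization left it at 0.68 log2. Between Th22 and Th0, Cxcr5 and S1pr1, which encodes the receptor for exit from lymph nodes, were 2.43-fold and 2.33-fold higher and 0 were lower. After quantile normalization Gfi1, described next, was past 2-fold lower in Th22, at -1.19 log2 against -0.89 log2 before. Between Th17 and Th0, Cxcr5, Bcl6, Foxp3, S1pr1 and Socs3 were higher, and Gfi1, a repressor gene, was lower by 2.87-fold. Ptcra, Rag1, Rag2 and Hes1, which E proteins and Notch act on in thymocytes, were equal on all 3 arrays.

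Of 29 genes of the Wnt pathway and cofactors of Tcf7 and Lef1, 1 was higher and 1 lower by at least 2-fold between Th17 and Th22, both named next, and the median was 0. Tle4, which encodes a Groucho corepressor that Tcf7 and Lef1 recruit, was 2.08-fold higher in Th17. Rnf43, which encodes a ligase that removes Wnt receptors, was lowest in Th17, by 2.33-fold against Th22 and 2.51-fold against Th0, but under 2-fold in both after quantile normalization. Ctnnb1, the β-catenin gene, was at 0 in Th0, -0.06 in Th22 and 0.16 in Th17. The paralog Tcf7l1 was equal on all 3 arrays and Tcf7l2 lay between -0.08 in Th22 and 0.10 in Th17. Between Th22 and Th0 0 of 29 passed 2-fold. Axin2, the usual readout of β-catenin activity, was at 0 in Th0, 0 in Th22 and 0.11 in Th17.

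Axin2 was counted among 21 measured genes reported as Tcf7 or Lef1 targets in T cells. Between Th17 and Th22, 4 of them were higher in Th17 and 4 lower by at least 2-fold, against 1.1% and 1.5% of all genes. The other 13 did not pass, and the median was 0. Higher were Cxcr5, Il17a (1.99 log2), Il6st (1.86 log2) and Bcl6, and lower were Gata3 (-2.65 log2), Slamf6 (-1.20 log2), Themis (-1.09 log2) and Icos (-1.08 log2). Gata3 encodes the Th2 factor that TCF-1 is known to induce, and its value was 1.81 in Th0, 0 in Th22 and -2.65 in Th17. That order, with Th0 at the top, is not the order of Lef1. Slamf6, a surface receptor gene often used to mark TCF-1-positive T cells, was at 0 in Th0, 0.32 in Th22 and -0.88 in Th17. Icos, the costimulatory receptor gene, was at 0, 0.37 and -0.71, and Themis, a gene of T cell receptor signalling, at 0, 0.71 and -0.38, in the same order of arrays. Of the 17 list genes with 3 different values, 6 (35.3%) had the order of Lef1, beside 17.5% of all such genes. They were these 3 with Ccr7, Satb1 and Cd4, and Cd4 is also among the 4 of 10 pan T cell markers with that order. Ccr7 and Satb1 were 0.03 and 0.04 log2 higher in Th22 than in Th0, less than the SD between probe sets. In the other lists the share was 37.5% for Id and E protein partners and 26.7% for E protein targets. It was 12.5% for Wnt genes and 5.0% for inputs to the Id genes. These counts were chosen after the values were seen. Slamf6 and Icos were under 2-fold after quantile normalization, at -0.92 and -0.86 log2, while Gata3 was then 2.93-fold lower, Cxcr5 2.82-fold and Il17a 2.57-fold higher. Between Th22 and Th0, Il17a and Cxcr5 were higher and Gata3 was lower. Between Th17 and Th0, 5 were higher, among them Il6ra (1.13 log2), and 2 lower, Gata3 and Prdm1, which encodes Blimp-1 (-1.12 log2).

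**Figure D4:**
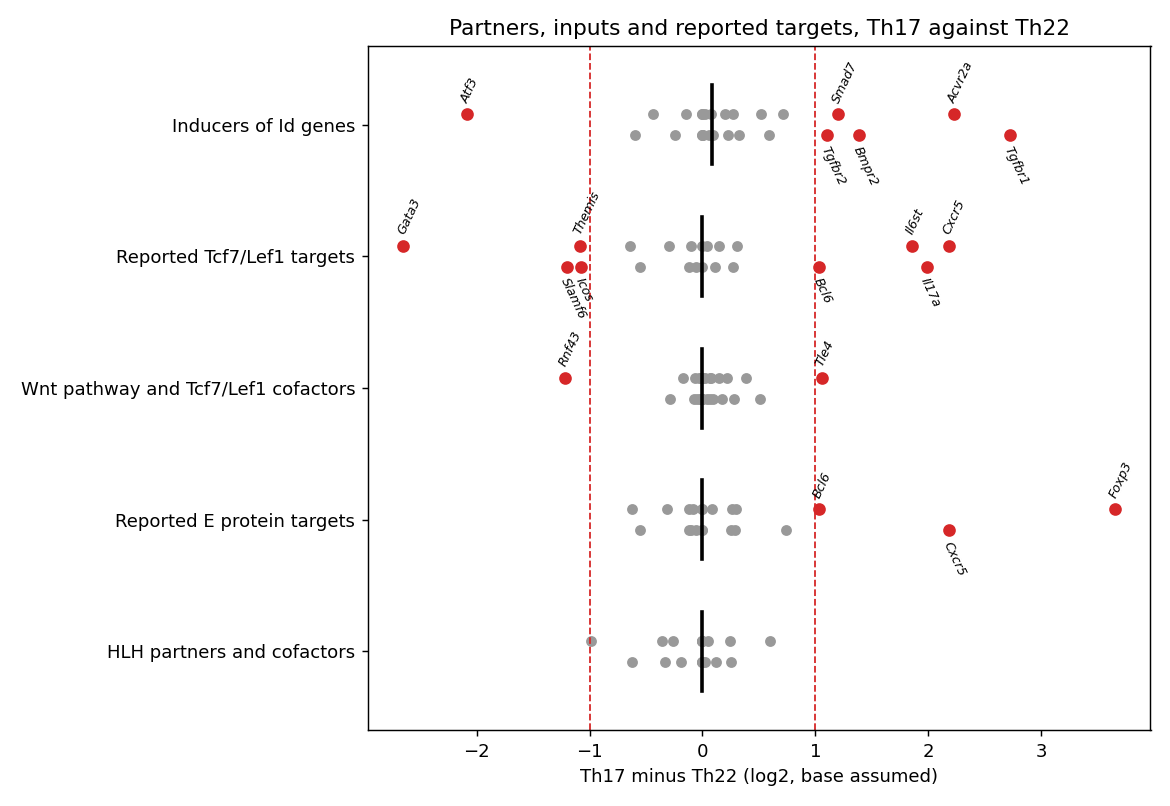
Difference between Th17 and Th22 (horizontal axis, log2) for every measured gene of the 5 lists, 1 point per gene, red and named where at least 2-fold, with the list median as a black bar; points at the same value overlap. The medians are 0 in 4 lists and 0.08 in the list of inputs to the Id genes, whose Tgfbr1 lies at 2.72 and Atf3 at -2.09. That list is labelled as inducers but also holds inhibitory genes such as Smad7 and Atf3.

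Markers of other cells that the cultures could hold were measured too. None of 8 myeloid markers was past 2-fold in any comparison. Of the 6 markers of CD8 or NK cells, Gzma and Cd8b1 were lower in Th17 by at least 2-fold against either other array, and 0 were higher by that much. After quantile normalization Cd8b1 was under 2-fold in both, at 1.61-fold and 1.96-fold. Of all genes, 2.61% were past 2-fold between Th17 and Th22 and 3.03% between Th17 and Th0. The other markers of CD8 or NK cells did not share this fall. Cd8a was at 0.15 log2 in Th17 against Th22 and -0.05 log2 against Th0. Eomes was equal in Th17 and Th22, at -0.79 log2 against Th0 in both. Ncr1 and Klrb1c were equal on all arrays. Irf8, on the plasmacytoid list but also expressed by T cells, was lower in Th22 than in Th0 by 2.04-fold, or by 5.06-fold after quantile normalization.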

How the data were processed

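The authors deposited 1 table of log2 values for 3 arrays, with base 2 assumed. The labels do not give the probe summary, normalization, software or genome build. Every one of the 28853 probe sets had a median of exactly 0 over the arrays. Groups were taken from the T-helper subset in the labels. Probe sets with 1 symbol (21789) were named from the platform annotation, with symbols brought up to date through the RefSeq genes of GRCm38.p6, and averaged by gene. Another 1621 had several symbols and 5443 were not listed. Differences between arrays were computed with Python 3.11.15, pandas 2.3.3 and numpy 2.4.6. Because each group has 1 array, differences were not tested. The members and lists were chosen with earlier results of these data known. The named genes are the members, the list genes past 2-fold in any comparison and the 3 genes nearest in pattern to Id3 and to Lef1. Other list genes were named to describe their list, and 7 genes displaced both ways like Id3 were named after their values were seen. Alternatives were the probe rule, quantile normalization of the median-centred values, centring, log base, shared probe sets, the threshold and leaving out equal genes.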

Additional observations from a re-analysis of the deposited data

How the results depend on the processing

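Of the 21 differences of the 7 genes, 0 changed sign under any alternative tried. Each of the 7 genes had 1 probe set, so taking the median or widest probe set could move none. Counting shared probe sets or centring on unequal genes also left every value as it was. A change of log base cannot change a sign, so the count of signs rests on quantile normalization. Quantile normalization moved 5 by more than the SD between probe sets, by at most 0.32 log2. It put 1 member, Id3, past 2-fold for Th22 against Th0, higher in Th22. In that comparison it turned the 109 of 19938 genes that were higher into 150, and the 52 that were lower into 158. Under quantile normalization the lists for Th17 against Th22 had 2 Id and E protein partners, 2 E protein targets and 1 Wnt gene past 2-fold. The lists also had 5 Tcf7 and Lef1 targets and 3 inputs to the Id genes past it. Of all 19938 genes, 197 were then higher and 202 lower by that much. Quantile normalization gave 1 partner and 1 Wnt gene for Th22 against Th0. It gave 0 Wnt genes for Th17 against Th0, where 202 of all genes were higher and 218 lower. It took 11 of 49 differences of list genes under 2-fold, with 0 turned. It also put other list genes newly past 2-fold. Among them were Gfi1 for Th22 against Th0 and Eomes for Th22 and for Th17 against Th0, at -1.08 log2 in both. The cause was not tested. Read as natural logs, the values put 2 members past 2-fold between Th17 and Th22, 1 between Th22 and Th0, and 2 between Th17 and Th0. The share of all genes past 2-fold on that reading was not computed, so these counts cannot be set beside it. At 1.5-fold the members past the threshold were 2, 1 and 3 of 7 in that order. Of all 19938 genes, those higher and lower at 1.5-fold were 422 and 671, 319 and 161, and 595 and 665. At 3-fold the members past the threshold were 1, 0 and 0 of 7. All genes higher and lower at 3-fold were 105 and 139, 37 and 22, and 146 and 144. No paired analysis was possible because each condition has 1 array. Signal over background is unknown.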
